A study of Saccharomyces cerevisiae with 6 samples.

Results

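The genes described here encode the main proteases of the yeast vacuole and a protein that inhibits one of them. There are 8 of them, PEP4, PRB1, PRC1, CPS1, LAP4, APE3, DAP2 and PBI2, among 5703 features measured. They were chosen by name, and each name belonged to 1 feature in the tables. LAP4 carries the name APE1 in the reference annotation. Transcripts were compared between Saccharomyces cerevisiae strains IMF17, in which glycolysis runs exclusively from genes on an added synthetic chromosome (neochromosome), and IMX2109, in which those genes are expressed from the native genome. Per the labels, each strain was grown aerobically from a freezer stock in selective minimal glucose medium and moved in biological triplicate to fresh medium (100 mL in a 500 mL flask), and was sampled in mid-exponential phase at an optical density (OD660) of 8. Each strain is thus represented by 3 cultures of 1 stock. The labels give no alleles of the 8 genes and no further genotype for either strain.

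The vacuole is the degradative compartment of yeast, the counterpart of the lysosome of animal cells. Its soluble proteases are made as inactive precursors, carried through the secretory pathway or directly from the cytosol, and activated inside the vacuole by a cascade that starts with proteinase A, the product of PEP4. Together they break down proteins delivered by autophagy and endocytosis to amino acids, and their genes are known to be expressed more strongly when nutrients run low.

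Libraries held 14999412 to 15914985 counted reads in IMF17 and 14696540 to 18801158 in IMX2109, and each of the 8 genes had between 1309 and 14609 reads in every library. Levels are in FPKM, reads scaled by feature length and by the library's total of counted reads. Genes of the 2-micron plasmid, a natural yeast plasmid, had 14854 to 15176 reads in each library of IMF17 and 0 in those of IMX2109 (out of 51549931 reads), so the strains were distinct. The share of reads on the numbered chromosomes of the assembly, called nuclear here, was 84.6 ± 0.323% for IMF17 and 90.4 ± 0.519% for IMX2109 (SD, n = 3). This by itself lowers the FPKM of genes on those chromosomes in IMF17. Features on any other sequence were left out of this share. Apart from the 2-micron plasmid, their reads are not broken down here. RNA came from whole cultures, so a change in every cell and a change in some of the cells cannot be told apart.

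The 2 endoproteases of the vacuole, its main carboxypeptidase and the inhibitor were higher in IMF17, and the 3 aminopeptidases and the second carboxypeptidase did not pass the test. Of the 8 genes, 4 were higher (PEP4, PRB1, PRC1 and PBI2), against 12.1% of the 5425 features tested, and 0 were lower, against 25.3%. The rises were small, 1.16-fold to 1.25-fold on mean FPKM. Calls come from limma on log2(FPKM + 1) with Benjamini-Hochberg adjustment over all tested features at a threshold of 0.05, and all 8 genes passed the filter of a mean of 1 FPKM. None was lower at an unadjusted p under 0.05 either (0 of 8 by limma). Limma-voom on recovered reads also called 0 lower, beside 12.0% of all features. The 3 libraries of each strain did not overlap for those 4 genes, all higher in IMF17, as for 14.5% of tested features. The median log2 fold change of the 8 was 0.11, beside -0.07 over all tested features.

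PEP4 (YPL154C, chromosome 16, 268490 to 269707 on the IMF17 assembly) encodes proteinase A, the aspartyl protease that starts the activation of the other vacuolar precursors. Its level was 447, 429 and 402 FPKM in IMF17 replicates 1, 2 and 3 and 347, 355 and 341 FPKM in the IMX2109 replicates. Every IMF17 culture lay above every IMX2109 culture. Means were 426 ± 23.1 and 347 ± 6.89 FPKM (SD, n = 3), a 1.23-fold rise and a log2 fold change of 0.29 ± 0.04 (SE, limma adjusted p = 0.000537).

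PRB1 (YEL060C, chromosome 5, 41100 to 43007) encodes proteinase B, the subtilisin-like serine protease that acts after proteinase A in the cascade. It stood at 487, 502 and 478 FPKM in the 3 cultures of IMF17 and at 345, 399 and 427 FPKM in those of IMX2109. The groups did not overlap, but the IMX2109 cultures were spread widely, with replicate 1 the lowest. The strain means were 489 ± 11.8 and 390.2 ± 41.9 FPKM (SD, n = 3), 1.25-fold apart, with a log2 fold change of 0.33 ± 0.07 (SE, limma adjusted p = 0.00274). Without IMX2109 replicate 1 the log2 fold change was 0.24.

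PRC1 (YMR297W, chromosome 13, 848197 to 849795) encodes carboxypeptidase Y, which takes amino acids off the C-terminus and is the classic cargo of studies of vacuolar sorting. Its transcript reached 371, 367 and 343 FPKM in IMF17, and 302, 287 and 284 FPKM for IMX2109. The lowest IMF17 value was above the highest IMX2109 value. On average this was 361 ± 15.1 against 291 ± 9.74 FPKM (SD, n = 3), 1.24-fold, and the log2 fold change was 0.31 ± 0.04 (SE, limma adjusted p = 0.000314).

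PBI2 (YNL015W, chromosome 14, 605768 to 605995) encodes a small cytosolic inhibitor of proteinase B that also takes part in vacuole fusion. With 228 bases it is the shortest of the 8 features, and it had 1418 to 1913 reads per library. It was measured at 522, 524 and 497 FPKM in IMF17, and 446, 456 and 423 FPKM for IMX2109, again without overlap. Means of 514 ± 14.8 and 442 ± 16.9 FPKM (SD, n = 3) gave a 1.16-fold rise, with a log2 fold change of 0.22 ± 0.04 (SE, limma adjusted p = 0.002).

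The promoters of 3 of the 4 higher genes, PRB1, PRC1 and PBI2, are shown because these genes were higher together, and that of LAP4, which did not pass the test, because it holds the same letters. They are windows of the reference strain, 250 bases before to 50 bases from the start codon on, taken by locus tag from the RefSeq R64 genome and annotation, at chrV:41904-42203 on the minus strand for PRB1, chrXIII:861672-861971 on the plus strand for PRC1, chrXIV:605134-605433 on the plus strand for PBI2 and chrXI:247633-247932 on the minus strand for LAP4. These R64 positions are on another assembly than the gene positions given above, and the promoters of IMF17 and IMX2109 themselves were not read here. Coding lengths of all 8 genes were the same in R64 and in the tables. Capitals mark AGGGG or its complement CCCCT, the core letters of the stress response element that Msn2 and Msn4 bind.
PRB1: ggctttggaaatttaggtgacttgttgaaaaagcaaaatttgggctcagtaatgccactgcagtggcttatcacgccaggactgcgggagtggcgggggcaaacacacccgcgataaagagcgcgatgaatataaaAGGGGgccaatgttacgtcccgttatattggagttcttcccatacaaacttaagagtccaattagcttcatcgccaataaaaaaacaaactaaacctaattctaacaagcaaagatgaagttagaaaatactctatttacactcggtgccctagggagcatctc
PRC1: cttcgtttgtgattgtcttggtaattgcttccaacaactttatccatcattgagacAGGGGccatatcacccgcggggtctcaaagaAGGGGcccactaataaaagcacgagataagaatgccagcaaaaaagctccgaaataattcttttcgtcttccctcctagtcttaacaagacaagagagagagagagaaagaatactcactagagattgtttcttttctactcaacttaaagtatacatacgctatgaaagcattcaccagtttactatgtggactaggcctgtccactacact
PBI2: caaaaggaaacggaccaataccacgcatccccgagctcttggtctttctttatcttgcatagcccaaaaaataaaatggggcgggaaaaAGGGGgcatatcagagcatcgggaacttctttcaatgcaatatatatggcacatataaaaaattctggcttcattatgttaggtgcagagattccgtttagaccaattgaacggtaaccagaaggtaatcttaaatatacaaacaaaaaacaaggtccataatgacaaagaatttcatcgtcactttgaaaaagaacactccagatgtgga
LAP4: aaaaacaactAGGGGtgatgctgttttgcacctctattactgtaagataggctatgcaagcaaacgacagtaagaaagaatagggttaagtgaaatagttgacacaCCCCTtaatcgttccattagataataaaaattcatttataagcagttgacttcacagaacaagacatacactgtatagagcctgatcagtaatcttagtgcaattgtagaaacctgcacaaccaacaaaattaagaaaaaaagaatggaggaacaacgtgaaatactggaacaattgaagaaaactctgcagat

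Letters of the stress element were present in 6 of the 7 windows searched, against 21.6% of 6026 R64 windows searched the same way on both strands. Of the 4 genes that were higher, 3 were searched: PRB1 has them 114 bases before the start codon, PRC1 194 and 163 bases before it and PBI2 161 bases before it. CPS1, LAP4 and APE3, which did not pass the test, hold them too, and DAP2 holds none. LAP4 has them 240 and 144 bases and APE3 131 bases before the start codon. CPS1 has them 152 bases before the start codon and, inside the coding sequence, 25 bases after its first base. GATAAG or CTTATC, the letters read by GATA factors of nitrogen control, were in 4 windows (PRB1, PRC1, CPS1 and DAP2), against 14.65% of all windows. The post-diauxic shift letters AGGGAT and their complement were in 0 of the 7 windows and in 9.33% of all. CACGTG, read by Pho4 and Cbf1, was likewise in 0 of the 7, and in 2.9% of all windows. For TGACTC, read by Gcn4, it was 0 of the 7 and 7.95% of all. These are matches of letters and not measured binding.

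**Figure D1:**
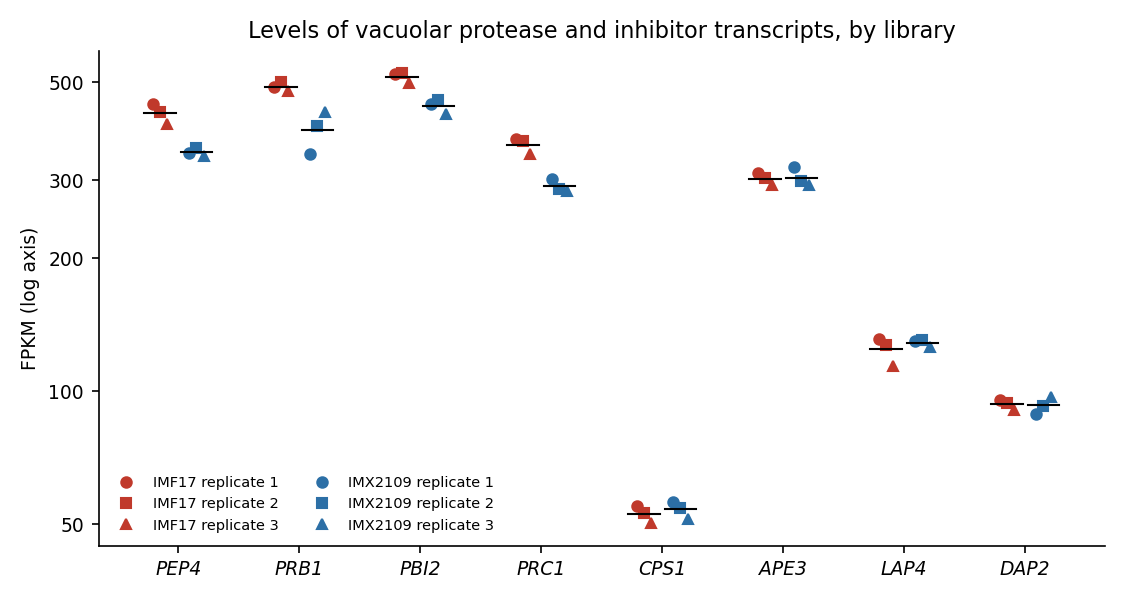
FPKM of the 8 genes in each library, on a log axis, with IMF17 in red and IMX2109 in blue, 1 symbol per replicate and a black line at the mean. The IMF17 cultures lie above all IMX2109 cultures for PEP4, PRB1, PBI2 and PRC1, and the strains overlap for CPS1, APE3, LAP4 and DAP2.

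For the other carboxypeptidase and the aminopeptidases the strains overlapped and no difference passed the test. CPS1 (YJL172W, chromosome 10, 104815 to 106545), carboxypeptidase S, is made as a membrane protein and reaches the vacuole through the multivesicular body. It was the lowest of the 8, at 55.1, 52.9 and 50.3 FPKM in IMF17, and 56.2, 54.4 and 51.5 FPKM for IMX2109, with overlapping groups. Its log2 fold change was -0.03 with a 95% interval of -0.16 to 0.09 (limma adjusted p = 0.678).

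LAP4 (YKL103C, chromosome 11, 244942 to 246486) encodes aminopeptidase I, which is taken from the cytosol to the vacuole by a selective form of autophagy. Values were 131, 127 and 114 FPKM in IMF17, and 130.1, 130.3 and 126 FPKM for IMX2109, and IMF17 replicate 3 was the lowest of the 6. Its 95% interval ran from -0.17 to 0.07 around a log2 fold change of -0.05 (limma adjusted p = 0.476).

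APE3 (YBR286W, chromosome 2, 766724 to 768337), aminopeptidase Y, stood at 311, 303 and 292 FPKM in IMF17, and 321, 299 and 293 FPKM for IMX2109. DAP2 (YHR028C, chromosome 8, 161682 to 164138), the membrane-bound dipeptidyl aminopeptidase B, was at 95.5, 94.1 and 90.9 FPKM in IMF17, and 88.8, 92.5 and 97.3 FPKM for IMX2109. For both, the ranges of the strains overlapped and means were within 1 SD of each other. Log2 fold changes were -0.01 for APE3 (95% interval -0.11 to 0.09, limma adjusted p = 0.888) and 0.01 for DAP2 (-0.10 to 0.12, limma adjusted p = 0.886). The 95% intervals of the 4 higher genes began at 0.19 for PEP4, 0.19 for PRB1, 0.21 for PRC1 and 0.13 for PBI2. Whether the 4 rises differ from these 4 values was not tested. The genes were parted by the same fit that gave the intervals, so setting the intervals side by side cannot decide it.

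**Figure D2:**
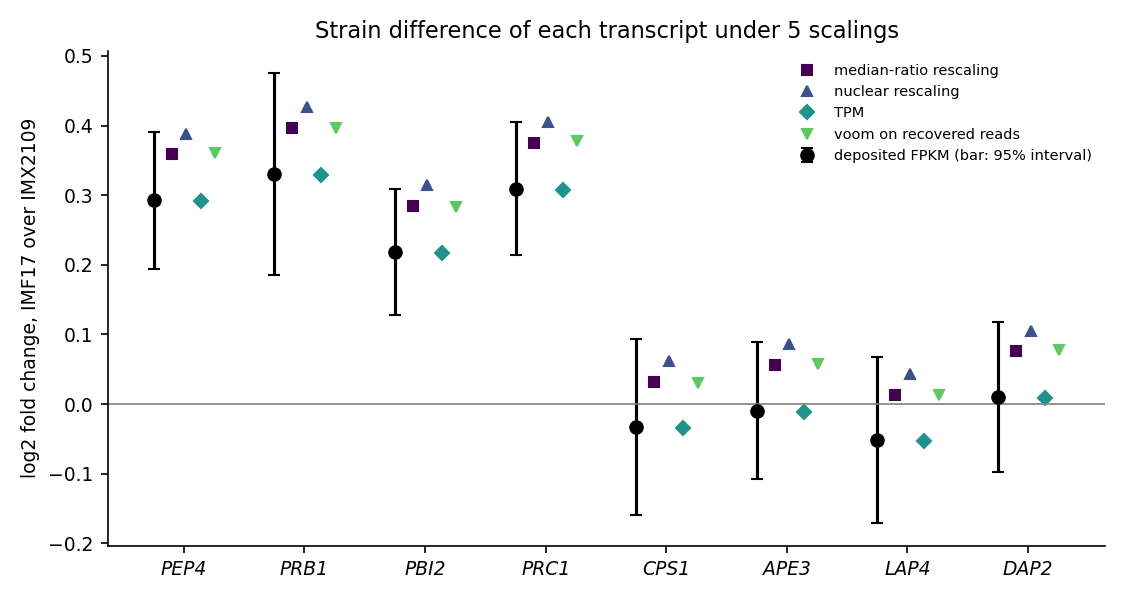
Log2 fold change of each gene, IMF17 over IMX2109, from the deposited FPKM (black, bars are 95% intervals of limma) and under 4 other scalings (coloured symbols). PEP4, PRB1, PBI2 and PRC1 stay above 0.2 in all 5, and CPS1, APE3, LAP4 and DAP2 lie between -0.05 and 0.11.

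Each scaling moved the 8 genes by about the same step, and none changed a call among them. The step differed between scalings. The median log2 fold change of all tested features moved by -0.0015 with TPM, 0.064 after median-ratio rescaling and 0.093 after nuclear rescaling. In nuclear rescaling each library was rescaled to its reads on the numbered chromosomes. The log2 fold changes were then 0.39 for PEP4, 0.43 for PRB1, 0.40 for PRC1 and 0.31 for PBI2. In that fit 19.0% of features were higher and 8.85% lower. Median-ratio rescaling called 16.3% of features higher and 11.8% lower, and voom called 16.7% higher and 12.0% lower. Among the genes not past the test, nuclear rescaling brought DAP2 to 0.11, APE3 to 0.09, CPS1 to 0.06 and LAP4 to 0.04. The small negative values of CPS1, LAP4 and APE3 on deposited FPKM thus became positive on that scale, as they did under median-ratio rescaling and voom.

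In IMF17 the order of levels per length was PBI2, PRB1, PEP4, PRC1, APE3, LAP4, DAP2 and CPS1. Neighbours in that order had separate ranges, except PBI2 and PRB1. In IMX2109 the order was the same but for APE3, at 304 FPKM, which came before PRC1 at 291 FPKM, and the ranges of PBI2 with PRB1, of PRB1 with PEP4 and of APE3 with PRC1 overlapped. PRB1 ranked 348 in level among the 5425 tested features of IMF17 and 477 in IMX2109. CPS1 stood near the middle of all features, at rank 2737 and 2738. Summed over the 8 transcripts, the share of total FPKM was 0.244 ± 0.00832% for IMF17 cultures and 0.212 ± 0.00442% for IMX2109 cultures (SD, n = 3). Replicate 3 was the lowest IMF17 culture for each of the 8 genes, the ones past the test and the others alike.

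PEP4 and PRC1 had similar profiles over the 6 libraries, which include the strain difference for which both were called. With each profile of log2(FPKM + 1) centred on its mean, PEP4 was the fifth nearest of 5424 features to PRC1, at a Euclidean distance of 0.0865. The nearest to PRC1 were RIB4 (0.0490), KGD2 (0.0647) and COS1 (0.0689), and COS1 belongs to a family of near-identical genes that can share reads. PBI2 was at place 40 from PRC1 (0.141). PRB1 was less like its partners, at 0.297 from PRC1 and 0.259 from PEP4. Among features nearest to PRB1, PEP4 took place 218 and PRC1 place 360. The features nearest to PRB1 were GDE1 (0.0735), YFL054C (0.0838), named AQY3 in the reference, and PDR12 (0.0846).

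Yeast has inhibitors for 2 more of these proteases, and both were higher in IMF17, beside 12.1% of all tested features. PAI3 encodes the inhibitor of proteinase A and TFS1 the inhibitor of carboxypeptidase Y. PAI3 was at 50.1, 58.0 and 58.3 FPKM in IMF17, and 40.3, 36.7 and 35.8 FPKM for IMX2109. TFS1 was at 98.3, 96.5 and 82.9 FPKM in IMF17, and 53.1, 51.5 and 51.7 FPKM for IMX2109. Neither gene had overlapping groups, where 14.5% of all tested features had all 3 IMF17 libraries higher. The means differed 1.47-fold for PAI3 (log2 fold change 0.55 ± 0.07, SE, limma adjusted p = 0.000204) and 1.78-fold for TFS1 (0.81 ± 0.07, limma adjusted p = 3.48e-06).

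Ratios of FPKM within a library do not depend on how libraries are scaled. The ratio of PBI2 to PRB1 was 1.07, 1.04 and 1.04 in IMF17 and 1.29, 1.14 and 0.991 in IMX2109, so the strains overlapped. For PAI3 to PEP4 it was 0.112, 0.135 and 0.145 in IMF17 and 0.116, 0.103 and 0.105 in IMX2109, again with overlap. TFS1 to PRC1 gave 0.265, 0.263 and 0.242 in IMF17 and 0.176, 0.179 and 0.182 in IMX2109, a mean ratio 1.43-fold higher in IMF17 and no overlap. The 3 ratios are given as descriptions without a test.

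**Figure D3:**
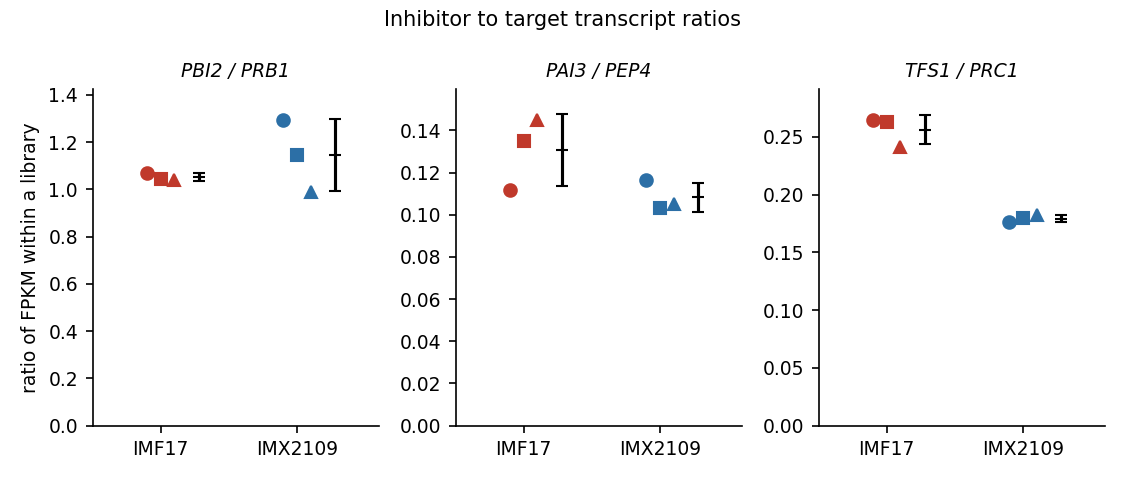
Ratio of inhibitor to target transcript, in FPKM within each library, for PBI2 to PRB1, PAI3 to PEP4 and TFS1 to PRC1, with 1 symbol per replicate and the mean with SD (n = 3) beside them. TFS1 to PRC1 is separated between the strains (0.256 against 0.179 on average), and the other pairs overlap.

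Relatives of these proteases by protein family, and other aminopeptidases, filled 17 tested features from 16 listed genes. Of these, 7 were higher and 1 was lower, beside 12.1% and 25.3% of all tested features, and 9 did not pass. The median log2 fold change was 0.05, beside -0.07 for all features. Among aspartyl proteases related to PEP4, the cell-surface yapsins YPS3 (67.4 ± 2.55 against 40.7 ± 0.162 FPKM, limma adjusted p = 1.5e-06), YPS1 (106 ± 1.20 against 82.8 ± 2.60 FPKM, limma adjusted p = 0.000133) and YPS6 (16.0 ± 1.45 against 10.5 ± 1.15 FPKM, limma adjusted p = 0.00106) were higher (SD, n = 3). The yapsins YPS7 and MKC7 had log2 fold changes of -0.09 and -0.07 and did not pass (limma adjusted p = 0.141 and 0.328), nor did BAR1, the protease that degrades alpha-factor (0.03, limma adjusted p = 0.557). YSP3, a subtilisin-like relative of PRB1, was 1.37-fold higher (limma adjusted p = 0.000992), and ATG42, a vacuolar carboxypeptidase related to PRC1, 1.19-fold higher (limma adjusted p = 0.023). The call on ATG42 was lost without IMF17 replicate 1 or 2 and without IMX2109 replicate 2 or 3 (limma adjusted p from 0.0644 to 0.0991), and with no filter (0.0728). Of YOL153C, a gene related to CPS1 that is divided among 3 features, 2 features were higher. APE4, related to LAP4, and STE13, related to DAP2, did not pass (limma adjusted p = 0.522 and 0.395). RRT12 was below the filter. The gene that was lower, the aminopeptidase gene APE2 (limma adjusted p = 0.00932), was not called after median-ratio or nuclear rescaling or with voom.

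Several other hydrolases of the vacuole were higher in IMF17. Of 9 tested, 5 were higher and 0 lower, beside 12.1% and 25.3% of all tested features, and their median log2 fold change was 0.14. With voom 0 were lower too, beside 12.0% of all features. AMS1, the vacuolar alpha-mannosidase that shares the LAP4 route, was 2.01-fold higher, at 19.2 ± 0.548 against 9.56 ± 1.69 FPKM (SD, n = 3, limma adjusted p = 5.3e-05). RNY1, a vacuolar ribonuclease, was 1.25-fold higher (limma adjusted p = 0.00187), and ATH1, acid trehalase, 1.29-fold (limma adjusted p = 0.012; 0.0528 without IMF17 replicate 1). ATG42 and PHO8, the vacuolar alkaline phosphatase, were also higher, and ATG15, PPN1, PPN2 and DPP1 did not pass. The call on PHO8 (limma adjusted p = 0.0334) was lost with TPM (0.057) and without IMF17 replicate 1 or 2 or IMX2109 replicate 1 or 2 (0.0574 to 0.147). Over the alternatives the count of 5 ran from 2 to 7. It fell to 2 without IMF17 replicate 1, 3 without IMF17 replicate 2 and 3 without IMX2109 replicate 2. With TPM, with no filter and without IMX2109 replicate 1 it was 4. It was 7 after nuclear rescaling, 6 after median-ratio rescaling and 6 with voom, beside 19.0%, 16.3% and 16.7% of all features higher. ATG42 is counted among the family relatives too.

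Genes that carry the proteases to the vacuole mostly did not pass the test. Of 37 tested features of vacuolar sorting, 1 was higher and 4 were lower, shares below the 12.1% and 25.3% of all tested features, and 32 did not pass. Their median log2 fold change was -0.02. PEP1, the sorting receptor of carboxypeptidase Y, did not pass, with 32.1 ± 1.08 against 31.5 ± 4.66 FPKM (SD, n = 3, limma adjusted p = 0.774), and was named after its values were seen. The feature that was higher is named VTH2, a receptor related to PEP1 (35.5 ± 0.901 against 22.0 ± 1.74 FPKM, limma adjusted p = 3.5e-05). But VTH2 fills 2 features and is near-identical to VTH1, so its reads may be shared. The other VTH2 feature, at 2.23 against 2.00 FPKM, did not pass (limma adjusted p = 0.459). VPS9, VAM3, YPT7 and APS3 were lower, VPS9 by 0.29 and YPT7 by 0.20 on the log2 scale (limma adjusted p = 0.00735 and 0.00352). Neither VAM3 nor YPT7 was called after nuclear rescaling (limma adjusted p = 0.0893 and 0.0943) or with voom (0.0624 and 0.0611), and YPT7 was not called after median-ratio rescaling (0.0649). The call on APS3 was lost after nuclear and median-ratio rescaling, with voom, and without IMF17 replicate 1 or IMX2109 replicate 2 (limma adjusted p from 0.0646 to 0.25). The sorting list had 5 higher and 1 lower after nuclear rescaling (all features 19.0% and 8.85%), 4 and 1 with voom (16.7% and 12.0%) and 3 and 2 after median-ratio rescaling (16.3% and 11.8%), so each count was below the share over all features. It had 2 higher without IMF17 replicate 3 or without IMX2109 replicate 3.

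On the route of CPS1, 21 genes of the multivesicular body were tested, with 0 higher, 3 lower (DID2, VPS4 and VPS20) and a median log2 fold change of -0.06. Both counts were below the 12.1% higher and 25.3% lower of all features. None of the 3 was called after median-ratio or nuclear rescaling or with voom. Each of these fits had 1 gene higher and 0 lower. Over all features their shares were 16.3%, 19.0% and 16.7% higher and 11.8%, 8.85% and 12.0% lower. In the main scaling the lower count was 0 without IMF17 replicate 1, 1 without IMF17 replicate 2 and 1 without IMX2109 replicate 1. Without IMX2109 replicate 3, 1 was higher. On the route of LAP4, 2 of 21 genes were higher and 0 lower. The higher count is near the 12.1% of all features, and 25.3% of all were lower. With voom 5 were higher and 0 lower, beside 16.7% and 12.0% of all features. The 2 higher genes were ATG19, the receptor that binds the LAP4 precursor (111 ± 8.02 against 92.8 ± 2.10 FPKM, SD, n = 3, limma adjusted p = 0.00457), and ATG8, the protein that coats autophagic membranes (124 ± 10.8 against 104 ± 7.95 FPKM, limma adjusted p = 0.0175). The call on ATG8 was lost without IMF17 replicate 1 or 2 or IMX2109 replicate 3 (limma adjusted p from 0.0564 to 0.0803) and with no filter (0.0683), which left 1 gene higher with no filter and without either of those IMF17 replicates. Nuclear and median-ratio rescaling gave 5 higher, where 19.0% and 16.3% of all features were higher.

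Subunits and assembly factors of the vacuolar H+-ATPase, the proton pump whose acidity the proteases need, had 10 of 20 lower and 0 higher, beside 25.3% and 12.1% of all features. Their median log2 fold change was -0.11 beside -0.07 for all features. Among them were PKR1, an assembly factor that fell by 0.35, and VMA7, a subunit that fell by 0.26 on the log2 scale (limma adjusted p = 0.000629 and 0.000993). After median-ratio rescaling, nuclear rescaling and voom the count of lower genes was 2 each, near the 11.8%, 8.85% and 12.0% of all features. For transport of amino acids, peptides and other solutes at the vacuole 16 genes were listed, and 15 features were found and tested. Of these, 6 were lower and 1 higher, beside 25.3% and 12.1% of all features. Whether each product, that of OPT2 included, sits in the vacuole membrane was not examined here. ATG22, which returns amino acids of autophagic breakdown to the cytosol, was higher (39.5 ± 2.49 against 31.0 ± 0.527 FPKM, SD, n = 3, limma adjusted p = 0.0018), and the peptide transporter gene OPT2 was lower, by 0.40 on the log2 scale (limma adjusted p = 0.00112). The basic amino acid transporter genes VBA1 and YPQ2 were each lower by 0.22 on the log2 scale. After nuclear rescaling the lower count was 1, beside 8.85% of all features, and VBA1 and YPQ2 were not called (limma adjusted p = 0.0521 and 0.056). It was 4 after median-ratio rescaling and 4 with voom, beside 11.8% and 12.0% of all features.

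**Figure D4:**
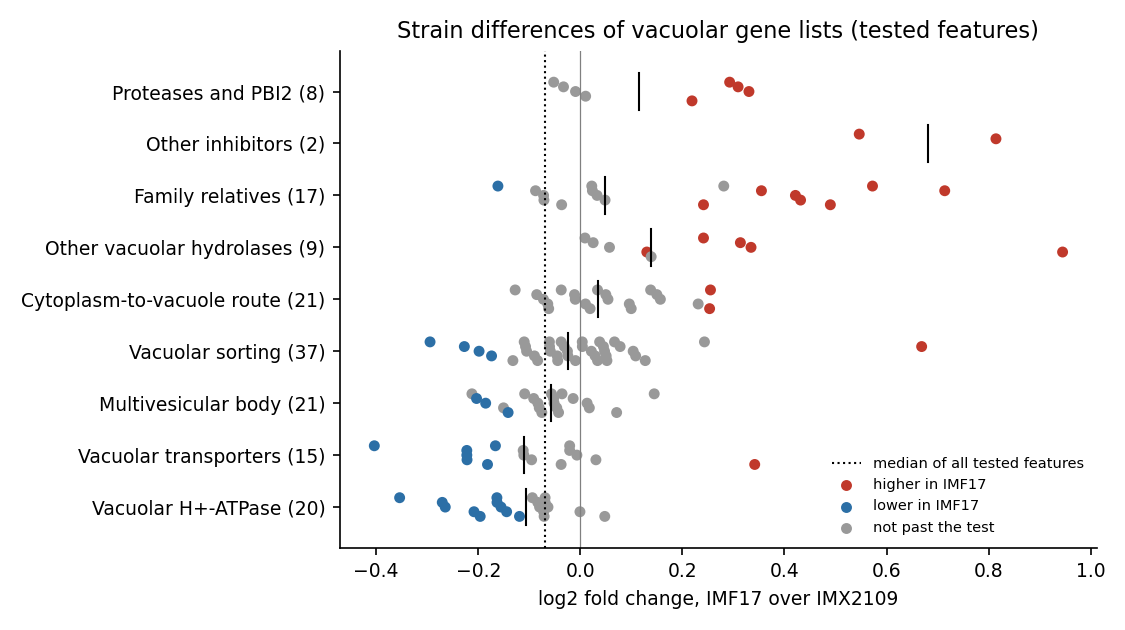
Log2 fold change, IMF17 over IMX2109, of each tested feature of the 8 genes and of 8 further vacuolar lists (number tested in brackets), with red for higher, blue for lower and grey for not past the test. Black bars are list medians and the dotted line is the median of all tested features, -0.07. Inhibitors and hydrolases lie mostly to the right and H+-ATPase genes mostly to the left.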

How the data were processed

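Poly(A) RNA was sequenced from 6 cultures (TruSeq stranded kit), per the labels' protocols. The authors deposited FPKM, 1 table per library. STAR 2.5.4a, SAMtools, featureCounts, edgeR and DESeq2 are named per the submitters' processing notes without settings, and whether counting used strand is not stated. Per the file headers, reads of both strains were counted on features of an IMF17 assembly. Names came from the tables; R64 locus tags matched 5497 of 5703 features. FPKM times length, divided by the smallest nonzero product of the library, gave whole numbers for 100% of values (tolerance 0.01). That smallest product was taken as 1 read, and totals above are sums of the reads so recovered.

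Features with a mean of at least 1 FPKM were tested with limma 3.58.1 (R 4.3.3, trended variance, two-sided) on log2(FPKM + 1), IMF17 against IMX2109, with no block. Fold changes on this scale understate low genes. Genes and lists were chosen with earlier results of these data known. All 8 genes are named, and up to 4 tested genes of smallest p per list. Likeness used the 2 genes of largest change and 3 nearest features each. Promoter letters were searched in the windows of 7 of the 8 genes, and the window of the other gene is not reported here. Alternatives changed pseudocount, filter, scaling, variances, block and libraries. The test was also run on simulated reads, and the outcome is not given here. Their spread between replicates was set and not estimated from these data, and most planted changes were larger than those of the 8 genes. That run therefore cannot vouch for rises this small. Python 3.11.15, pandas 2.3.3, numpy 2.4.6 and matplotlib 3.10.9 were used.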

Additional observations from a re-analysis of the deposited data

How the results depend on the processing

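The counts of 4 genes higher and 0 lower among the 8 were the same in all 16 alternatives run. Over them the log2 fold change ran from 0.26 to 0.39 for PEP4, 0.24 to 0.43 for PRB1, 0.29 to 0.40 for PRC1 and 0.19 to 0.31 for PBI2, and their highest limma adjusted p-values were 0.00574, 0.0262, 0.00389 and 0.0159. CPS1, LAP4, APE3 and DAP2 stayed above the threshold (lowest limma adjusted p 0.372, 0.249, 0.205 and 0.124). Voom was run with median-ratio factors, chosen after seeing the data, in place of the TMM factors foreseen, which were not run. With the replicate number as a replicate block, PRB1 had a limma adjusted p of 0.000883 and PEP4 of 0.000243, and the block changed no call among the 8. Deviations of same-numbered libraries correlated at 0.0955, -0.0518 and 0.137 over 5425 features. IMF17 replicate 1 correlated no better with its own number than with IMX2109 replicate 2 (0.0961). IMF17 replicate 3 correlated better with its own number than with IMX2109 replicates 1 and 2 (-0.1125 and -0.0539). Correlations this few and small cannot tell whether same-numbered cultures were handled together. Groups of 3 cultures limit the precision of these small differences, and each value rests on 1309 or more reads.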

Other observations

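PRB1 lies 6.58 kb from CAN1 on chromosome 5 of the IMF17 assembly. CAN1, the arginine permease gene, averaged 167 against 15.1 FPKM (IMF17 against IMX2109). Of the genes between them, NPR2 did not pass the test (limma adjusted p = 0.107) and CIN8, next to PRB1, was lower, by 0.31 on the log2 scale (limma adjusted p = 0.0113). On the other side of PRB1, PCM1 was higher, by 0.27 on the log2 scale (limma adjusted p = 0.000531). Of the 16 features that flank the 8 genes directly, 4 were higher, 3 lower and 9 not past the test, and 1 of the 8 beside PEP4, PRB1, PRC1 and PBI2 was higher. Over all tested features 12.1% were higher and 25.3% lower. This look at neighbours was chosen after the data were seen, and whether position bears on PRB1 was not tested.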
